A study of Mus musculus with 6 samples.

Results

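The transcripts described here are those of 38 genes that take glucose into the cell, split it to pyruvate, exchange pyruvate with lactate, and pass pyruvate into mitochondria or glucose into glycogen. The genes were chosen by name, by matching a list of 38 gene symbols to the table of 14327 genes, and all 38 were found. They were measured by RNA sequencing in neurospheres, which are floating clusters of neural stem and progenitor cells. The cells came from the hippocampus of mice on postnatal day 0 and were grown in DMEM-F12 with the supplements B27 and N2 and the growth factors EGF and bFGF. Of 6 libraries, 3 were wild type (WT) and 3 carried the label cKO, read with the title of the series as a conditional knockout of Slc22a17, the gene of a receptor for the iron carrier lipocalin 2. Both groups were primary cells cultured the same way, and cKO below always means the libraries so labelled. Series of values follow replicates 1 to 3 (WT 1 to 3) in order. The driver of the knockout, the strain and the sex of the mice were not given in the sources used here. Whether a group's libraries came from separate mice or cultures is not stated in the labels, and the p-values then reflect only library-to-library spread, possibly technical.

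Glucose enters through facilitative transporters, is trapped as glucose-6-phosphate by hexokinase and is split and oxidised to pyruvate in the cytosol. Lactate dehydrogenase turns pyruvate into lactate, which leaves or enters cells through monocarboxylate transporters, while the mitochondrial pyruvate carrier and the pyruvate dehydrogenase complex feed the tricarboxylic acid cycle. Neural stem cells and astrocytes are known for a high rate of glycolysis, and many genes of the pathway are targets of the hypoxia-inducible factor HIF, which accumulates when oxygen is short. Values are given as FPKM, fragments scaled for transcript length and for the size of the library, so that levels of different genes can be set side by side per length.

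The libraries were first checked against their labels. Slc22a17 transcript was at 181, 169 and 204 FPKM in WT 1 to 3 against 164, 166 and 187 FPKM in cKO (93.5% of the WT level, 95% interval 81.6% to 107%, adjusted p = 0.707 in limma, exact permutation p = 0.5). The groups overlapped, so the targeted transcript did not separate them, and the directions below are between the libraries as labelled. The Y-linked pair Ddx3y plus Eif2s3y summed to 0.10 and 0.07 FPKM in WT replicates 1 and 2, to 25.9 FPKM in WT replicate 3 and to 43.8 to 51.2 FPKM in cKO, so group and Y-linked transcripts cannot be told apart except through WT replicate 3. Of the stem and progenitor markers all 12 were above the filter, with Fabp7 at 1768 to 2142 FPKM, Sox2 at 123 to 148 FPKM and Nes at 80.7 to 118 FPKM. Astrocyte markers ranged from S100b at 5.63 to 10.8 FPKM to Gfap at 1661 to 2741 FPKM, and oligodendrocyte lineage markers from Mog at 1.16 to 3.17 FPKM to Olig1 at 820.2 to 1207 FPKM, while 5 of 7 neuron markers in the table, 4 of 7 microglia and blood markers and 4 of 5 vessel markers averaged under 1 FPKM. The neuron markers above the filter were Map2 at 70.8 to 84.8 FPKM and Tubb3 at 3.46 to 5.40 FPKM, and C1qa of the microglia markers was at 2.85 to 6.76 FPKM. In such bulk samples, fewer cells of a type and less RNA per cell cannot be told apart.

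No gene of the 38 passed the test between the groups. All 38 averaged at least 1 FPKM and entered the limma fit of 11596 genes on log2(FPKM + 1), in which 0.0259% of genes passed an adjusted p of 0.05 (0.00862% higher and 0.0172% lower). By mean log2 value 24 members were lower and 14 higher in the libraries labelled cKO, where 55.5% of all tested genes were lower. The median difference was -0.04 on the log2 scale, against -0.02 over all tested genes, and it became -0.0065 on leaving out WT replicate 2 and -0.14 on leaving out WT replicate 3. At an unadjusted p of 0.05, which 12.3% of all tested genes reached (4.44% higher and 7.82% lower), there were 4 members, Mpc1, Aldoc and Pcx with higher and Slc16a1 with lower values. This count was 16 without WT replicate 3, where 1641 of all 11596 tested genes reached it (1422 in the main fit). It was 6 without cKO replicate 2 (1382 of all genes) and 3 to 5 without any other single library (968 to 1292). With library weights it was 12 (2399 of all genes) and with the replicate number as a block 11 (1739). With Y-linked share as covariate it was 13 (549 of all genes). The values of the groups did not overlap for 3 members, Aldoc and Mpc1 higher and Slc16a1 lower, where 17.2% of all tested genes did not overlap.

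**Figure D1:**
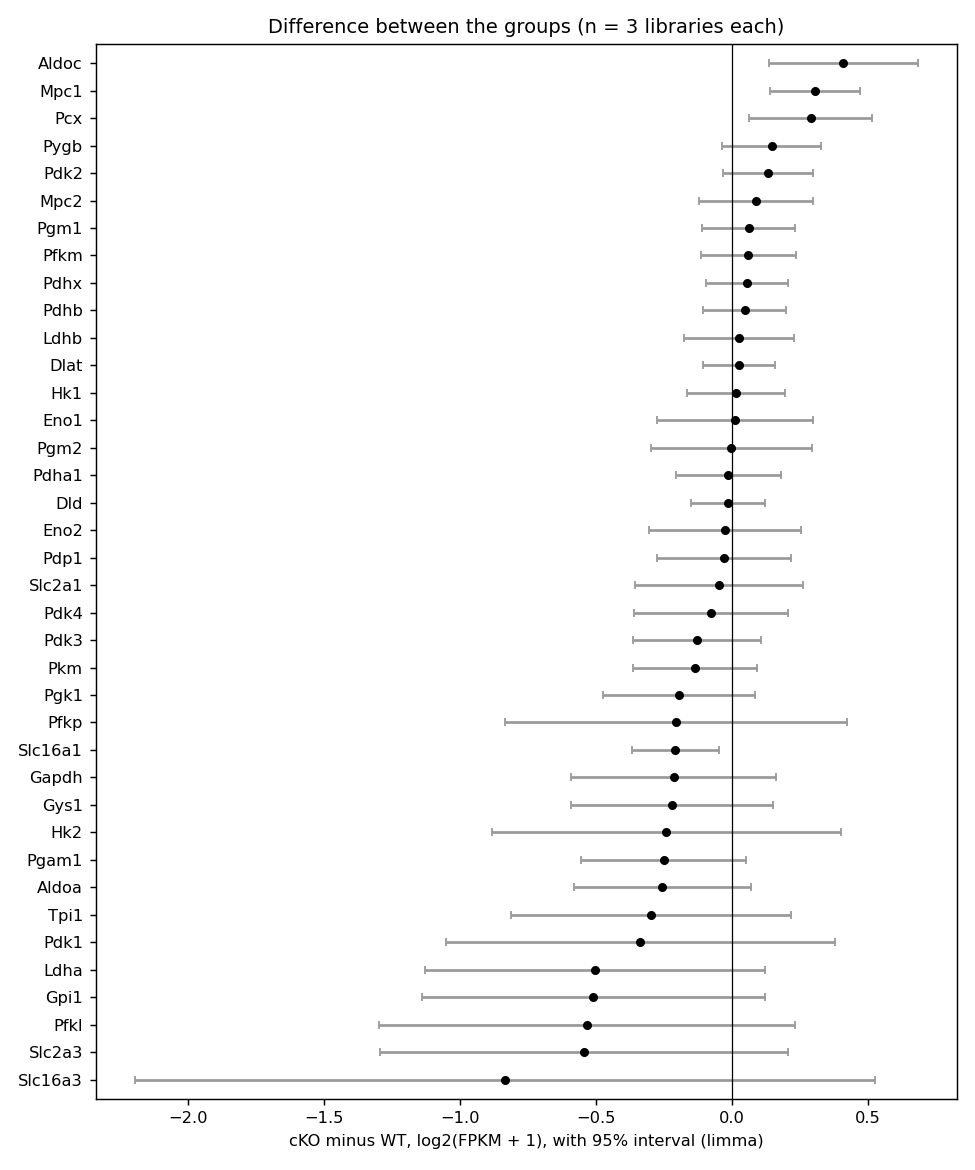
Difference of each gene between the libraries labelled cKO and WT (x axis, log2(FPKM + 1), points) with its 95% interval from limma (bars), ordered by the difference, for 3 libraries per group. The intervals of Aldoc, Mpc1, Pcx and Slc16a1 lie to one side of 0 before adjustment, and Slc16a3 has the lowest difference (-0.83) and the widest interval.

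The WT libraries themselves lay far apart. Against WT replicate 3 alone, the only WT library with Y-linked transcripts, 7 members were lower in the libraries labelled cKO and the median difference was 0.12, the opposite sign to that with all 3 WT libraries. The sign of 23 of the 38 differences thus turned when WT replicates 1 and 2 were left out. With Y-linked share as covariate 6 members were lower, the median was 0.39 and 0 members passed the threshold. Y-linked share follows the group except in WT replicate 3, so values from this fit rest mainly on that library. They cannot be read as group differences freed of Y-linked transcripts. For the members of widest range the size of the difference moved with single WT libraries. Slc16a3 differed by -0.36 without WT replicate 2 and by -1.52 without WT replicate 3. In the same order the values were -0.22 and -0.95 for Slc2a3, -0.28 and -0.83 for Gpi1, and -0.24 and -0.92 for Pfkl. They were -0.27 and -0.77 for Ldha and -0.0072 and -0.72 for Pdk1. For Hk2 the sign turned as well, at 0.032 and -0.59.

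**Figure D2:**
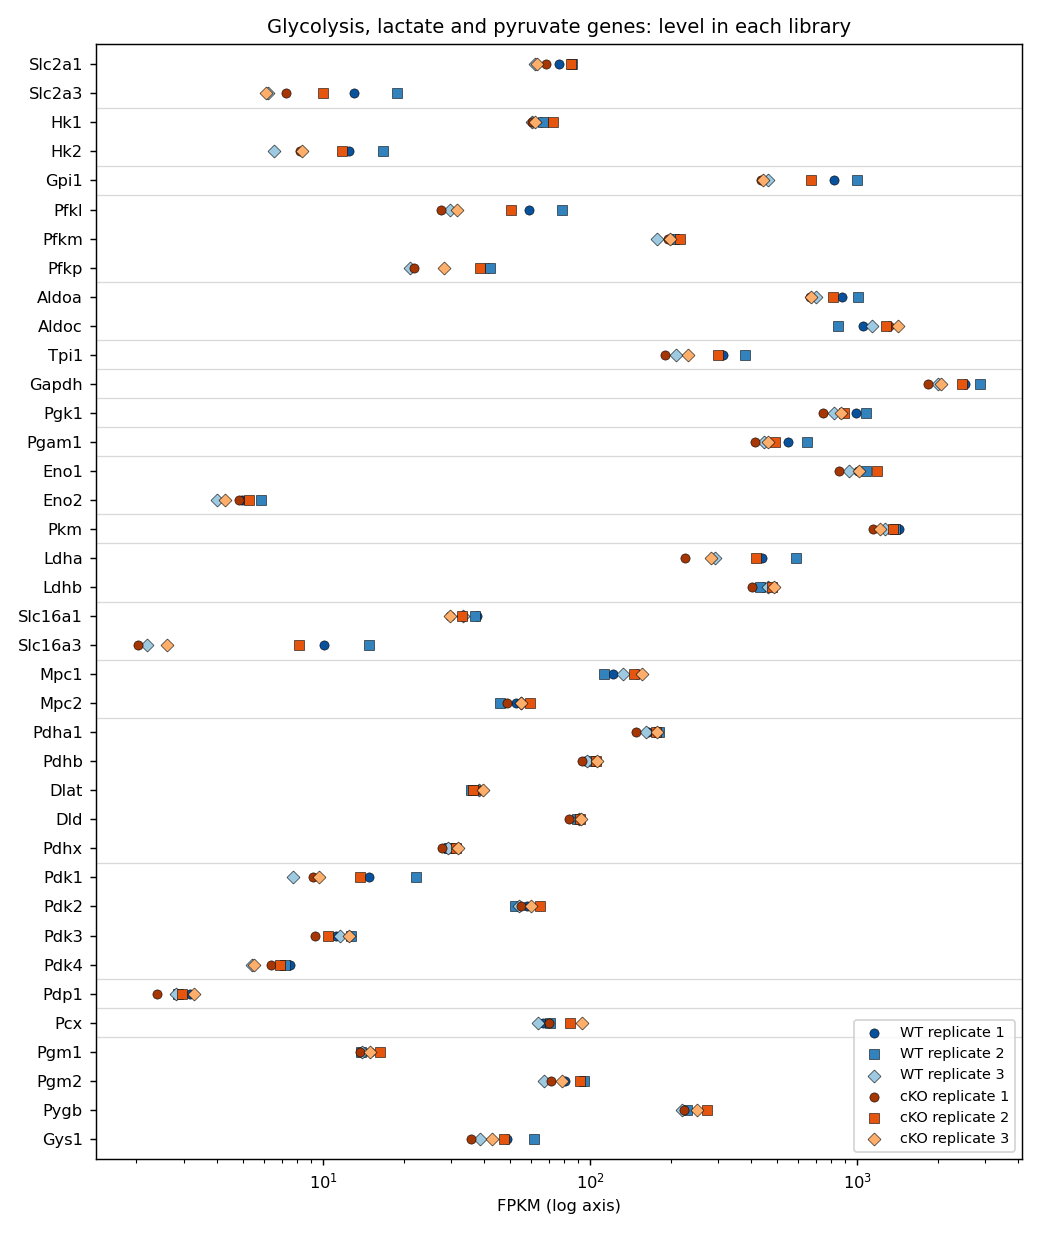
FPKM (x axis, log scale) of the 38 genes in each of the 6 libraries, in the order of the pathway from glucose uptake to glycogen, with grey lines between steps. Gapdh is the highest (1836 to 2886 FPKM), and Pdp1 and Slc16a3 reach the lowest values (2.39 and 2.02 FPKM).

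Of the 2 glucose transporter transcripts the more abundant was Slc2a1, which encodes the widely expressed transporter GLUT1. It was at 76.2, 85.6 and 61.9 FPKM in WT 1 to 3 against 68.6, 84.3 and 63.0 FPKM in cKO (log2 difference -0.05, 95% interval -0.36 to 0.26). The groups covered nearly the same range. Slc2a3, encoding GLUT3, a transporter of high affinity best known from neurons, was at 13.1, 18.9 and 6.21 FPKM in WT against 7.28, 10.02 and 6.13 FPKM in cKO. WT replicate 3 lay with the libraries labelled cKO, and the difference of -0.54 (interval -1.29 to 0.20, adjusted p = 0.548) was within the spread. Slc2a1 made up 81.9% to 91.1% of the summed FPKM of the pair over the 6 libraries.

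Among the hexokinases, Hk1, the constitutive brain form, stood at 60.4 to 66.8 FPKM in WT against 60.4 to 72.3 FPKM in cKO. Hk2, the form induced by growth factors and low oxygen, was at 12.5, 16.8 and 6.52 FPKM in WT 1 to 3 against 8.22, 11.8 and 8.30 FPKM in cKO. The Hk2 share of the pair was 16.1%, 20.1% and 9.74% in WT and 11.98%, 14.004% and 11.75% in cKO, with WT replicates 2 and 3 at the ends. Gpi1 (chromosome 7, 34201327 to 34230336 in GRCm38), glucose-6-phosphate isomerase, varied 2.28-fold over the libraries, against 2.58-fold for Hk2, at a far higher level. It was at 816, 995 and 462 FPKM in WT against 437, 670 and 444 FPKM in cKO (log2 difference -0.51, interval -1.14 to 0.12, adjusted p = 0.496). WT replicate 3 again fell among the libraries labelled cKO.

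Of the phosphofructokinases, which set the pace of glycolysis, the muscle form Pfkm dominated. It was nearly level, at 203, 206 and 178 FPKM in WT and 196, 216 and 199 FPKM in cKO (log2 difference 0.06, interval -0.11 to 0.23). The liver form Pfkl was at 59.2, 78.3 and 29.8 FPKM in WT 1 to 3 against 27.7, 50.7 and 31.7 FPKM in cKO, so that WT replicate 3 and cKO replicates 1 and 3 stood close together and apart from the other three. The platelet form Pfkp had the same 3 libraries low, at 41.6, 42.2 and 21.2 FPKM in WT and 21.8, 38.8 and 28.4 FPKM in cKO. Pfkm held 63.1% of the summed FPKM in WT replicate 2 but 79.8% in cKO replicate 1. Pfkfb3 and Pfkfb4, which make the activator fructose-2,6-bisphosphate and are no members of the 38, were at 17.9 to 34.6 and 7.47 to 10.8 FPKM. The 2 genes were named after their values were seen.

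The aldolase step held one of the clearer differences. Aldoc (chromosome 11, 78323073 to 78327781), the brain form and a marker of astrocytes and radial glia, was at 1053, 848 and 1138 FPKM in WT 1 to 3 against 1314, 1279 and 1418 FPKM in cKO. Each of the latter was above every WT library, as for 7.07% of all tested genes, and the ratio of means was 1.32 (log2 difference 0.41, SE 0.12, interval 0.13 to 0.68). The adjusted p of 0.248 in limma missed the threshold. Aldoa, the muscle and ubiquitous form, went the other way, at 876, 1003 and 698 FPKM in WT and 664, 811 and 670.2 FPKM in cKO (adjusted p = 0.504). WT replicate 2 was the only library with more Aldoa than Aldoc, an Aldoa share of 54.2%, and cKO replicate 3 had the lowest share at 32.1%. Summed FPKM of the pair was 1872 ± 50.1 in WT and 2052 ± 63.9 in cKO (SD, n = 3 each), with every library labelled cKO (1978 to 2090 FPKM) above every WT library (1836 to 1930 FPKM). Of 8 other astrocyte markers 6 were higher and 2 lower by mean in cKO, where 55.5% of all tested genes were lower. The median of the 8 was 0.19. Their summed level overlapped between the groups, at 3285 to 4398 FPKM in WT and 4229 to 4486 FPKM in cKO. Gfap, at 1661 to 2741 FPKM, was the largest part of it. Every library labelled cKO was above every WT library for 3 of the 8, where this held for 7.07% of all tested genes. These were Gjb6 (adjusted p = 0.103 in limma), Sparcl1 (0.189) and Slc1a2 (0.303), also the 3 of lowest p. The part of the astrocyte markers in the Aldoc difference was not tested. The Aldoc difference was 0.23 against WT replicate 3 alone and -0.016 with Y-linked share as covariate.

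The steps between aldolase and enolase, each held here by a single gene, shared one split of the libraries, with WT replicates 1 and 2 and cKO replicate 2 above the rest. Tpi1, triosephosphate isomerase, was at 314, 379 and 209 FPKM in WT against 191, 301 and 233 FPKM in cKO. Gapdh, often used as a reference gene, was at 2530, 2886 and 2001 FPKM in WT against 1836, 2474 and 2060 FPKM in cKO, a 1.57-fold range over the 6 libraries (log2 difference -0.21, interval -0.59 to 0.16). Neither gene separated the groups, since WT replicate 3 lay inside the range of the libraries labelled cKO in both. Pgk1, phosphoglycerate kinase, ran from 744 to 1075 FPKM and Pgam1, phosphoglycerate mutase, from 415 to 646 FPKM, each highest in WT replicate 2 and lowest in cKO replicate 1. Pgk1, Pdha1 and Pdk3 are the 3 members on the X chromosome. Several of these enzymes, Gapdh and Pgk1 among them, have near-identical processed pseudogenes whose reads a table per gene may not separate.

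The enolase and pyruvate kinase steps were steadier. Eno1, the ubiquitous enolase, was at 1005, 1076 and 928 FPKM in WT against 856, 1183 and 1015 FPKM in cKO, and Eno2, the neuronal enolase, reached only 4.02 to 5.83 FPKM. Eno1 thus held 99.4% to 99.6% of the step in every library. Pkm, pyruvate kinase, whose splice forms M1 and M2 are not separated in a table per gene, was at 1431, 1384 and 1267 FPKM in WT against 1146, 1356 and 1217 FPKM in cKO (log2 difference -0.14, interval -0.36 to 0.09). Summed over the 15 enzymes from hexokinase to pyruvate kinase, the pathway took 2.39%, 2.58% and 1.95% of all FPKM in the table in WT replicates 1 to 3. In the libraries labelled cKO it took 1.93%, 2.33% and 2.07%. WT replicate 3 and cKO replicate 1 were the lowest, and cKO replicate 2 was close to WT replicate 1.

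At the lactate branch the 2 lactate dehydrogenase subunits behaved differently between libraries. Ldha (chromosome 7, 46842274 to 46855627), the subunit of the form that favours lactate production, was at 439, 589 and 294 FPKM in WT 1 to 3 against 225, 416 and 283 FPKM in cKO (log2 difference -0.50, interval -1.13 to 0.12, adjusted p = 0.496). Ldhb, the subunit of the form that favours lactate use, was at 445, 433 and 461 FPKM in WT against 402, 479 and 487 FPKM in cKO (log2 difference 0.03, interval -0.17 to 0.23). Ldhb thus spanned 1.21-fold over the libraries and Ldha 2.61-fold. The ratio of Ldha to Ldhb was 0.99, 1.36 and 0.64 in WT and 0.56, 0.87 and 0.58 in cKO. Ldha transcript thus led only in WT replicate 2, was level in WT replicate 1, and was the lesser one elsewhere.

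The lactate carriers gave the widest and one of the more even contrasts. Slc16a3 (chromosome 11, 120948484 to 120959000), encoding MCT4, the exporter typical of strongly glycolytic cells, was at 10.1, 14.8 and 2.19 FPKM in WT against 2.02, 8.09 and 2.60 FPKM in cKO. This 7.35-fold range was the largest of the 38 genes, and most of it lay within the WT group (log2 difference -0.83, interval -2.19 to 0.52, adjusted p = 0.618). Slc16a1 (chromosome 3, 104638664 to 104658462), encoding MCT1, was at 37.6, 36.9 and 33.3 FPKM in WT against 29.8, 33.2 and 29.9 FPKM in cKO. Every library labelled cKO was below every WT library, as for 10.2% of all tested genes, though WT replicate 3 and cKO replicate 2 differed by little (ratio of means 0.861, log2 difference -0.21, SE 0.07, adjusted p = 0.296). The Slc16a1 difference was -0.10 against WT replicate 3 alone and 0.076 with Y-linked share as covariate. Bsg, basigin, the chaperone both carriers need at the cell surface, was at 686, 767 and 477 FPKM in WT against 487, 532 and 511 FPKM in cKO, with WT replicate 3 the lowest. Bsg is no member of the 38 and was named after its values were seen.

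**Figure D3:**
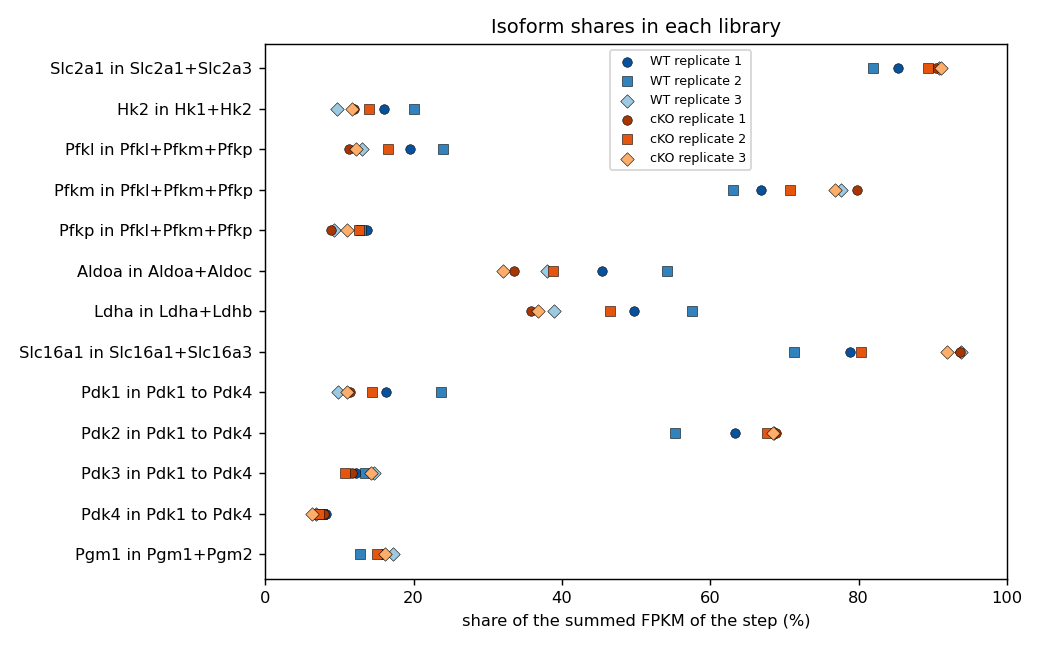
Share of an isoform in the summed FPKM of its step (x axis, %) in each of the 6 libraries. Ldha ranges from 35.9% to 57.6% and Aldoa from 32.1% to 54.2%, with WT replicate 2 at the upper end and cKO replicate 2 the highest of the libraries labelled cKO in both.

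A two-sided exact permutation test of 3 against 3 libraries cannot go below p = 0.1, so none of the 14 isoform shares could pass 0.05 and the test does not decide whether they differed. The lowest p was 0.2, for Pfkl, Aldoa and Ldha, with 0.636 after Benjamini-Hochberg adjustment over the 14. The Ldha share was 48.8% ± 9.36 in WT and 39.7% ± 5.89 in cKO (SD, n = 3 each), and the Aldoa share was 45.9% ± 8.10 and 34.8% ± 3.53. Against WT replicate 3 alone 12 of the 14 shares changed the sign of their difference, the Ldha share among them and the Aldoa share not.

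On the mitochondrial side Mpc1 stood out. Mpc1 and Mpc2 encode the 2 subunits that together form the carrier of pyruvate into mitochondria. Mpc1 (chromosome 17, 8283787 to 8297667) was at 122, 112 and 133 FPKM in WT 1 to 3 against 150.1, 146 and 156 FPKM in cKO. Every library labelled cKO was above every WT library, as for 7.07% of all tested genes. The ratio of means was 1.24 (log2 difference 0.31, SE 0.07, interval 0.14 to 0.47, adjusted p = 0.223 in limma). This was the lowest p of the 38 genes. With library weights, a setting that called 129 genes in all, Mpc1 passed (adjusted p = 0.0431), and over all alternatives its adjusted p ran from 0.0431 to 0.999. The difference was 0.18 against WT replicate 3 alone and 0.017 with Y-linked share as covariate. Mpc2, by contrast, overlapped between the groups, at 52.5, 45.9 and 55.1 FPKM in WT and 48.7, 59.4 and 55.2 FPKM in cKO. Transcripts of the 2 subunits of the carrier thus stood at a ratio of 2.31 to 2.45 in WT and 2.46 to 3.08 in cKO. Of the exon bases of Mpc1, 12.7% are shared with 4930506C21Rik on the other strand, and whether counting used strand was not given in the sources used here for any gene.

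The pyruvate dehydrogenase complex, which commits pyruvate to acetyl-CoA, was among the steadiest parts of the pathway. Its catalytic subunits Pdha1 and Pdhb were at 149 to 181 and 93.5 to 105.7 FPKM over the 6 libraries. The acetyltransferase core Dlat ran from 35.8 to 39.7 FPKM, the dehydrogenase Dld from 83.3 to 92.6 FPKM and the binding protein Pdhx from 27.8 to 32.0 FPKM. The log2 differences of the 5 ran from -0.02 to 0.05, and their intervals all lay between -0.21 and 0.20. The complex summed to 424 ± 12.01 FPKM in WT and 427 ± 30.6 FPKM in cKO (SD, n = 3 each). Ldha, which competes for the same pyruvate, was at 2.67, 3.26 and 1.82 times the level of Pdha1 in WT and at 1.51, 2.37 and 1.59 times in cKO.

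The kinases that switch the complex off differed by form. Pdk2, the general form, was the most abundant at 57.9, 52.1 and 54.1 FPKM in WT and 55.2, 65.0 and 60.2 FPKM in cKO (log2 difference 0.13, adjusted p = 0.503). Pdk1, the form induced by HIF, was at 14.9, 22.3 and 7.73 FPKM in WT 1 to 3 against 9.19, 13.8 and 9.64 FPKM in cKO (log2 difference -0.34, interval -1.05 to 0.38). WT replicates 2 and 3 were the highest and the lowest of the 6 libraries for Pdk1, so the whole range of the gene fell within the WT group. Pdk3 was at 9.35 to 12.7 FPKM and Pdk4, the form induced by fasting and fatty acids, at 5.40 to 7.52 FPKM, with overlapping groups in both. Summed over the 4 kinases the level was 88.2 ± 8.24 FPKM in WT and 88.0 ± 7.96 FPKM in cKO. Pdp1, a phosphatase that switches the complex back on, was low at 2.39 to 3.27 FPKM. Pdp2, another such phosphatase, was higher in every library, at 7.64 to 9.37 FPKM. Pdp2 is not among the members and was named after its values were seen.

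Pyruvate carboxylase, Pcx (chromosome 19, 4510472 to 4621752), which makes oxaloacetate from pyruvate and is an astrocyte enzyme in brain, had higher values in 2 of the 3 libraries labelled cKO. It was at 66.3, 70.9 and 64.0 FPKM in WT 1 to 3 against 70.3, 83.9 and 93.5 FPKM in cKO. The library cKO replicate 1 lay just below WT replicate 2, so the groups overlapped (ratio of means 1.23, log2 difference 0.29, SE 0.10, adjusted p = 0.301). Against WT replicate 3 alone its difference kept its sign. At the glycogen branch Pygb, the brain glycogen phosphorylase, was at 222, 231 and 220.1 FPKM in WT and 224, 273 and 251 FPKM in cKO. Gys1, glycogen synthase, was at 48.9, 61.6 and 38.6 FPKM in WT against 35.7, 47.7 and 42.7 FPKM in cKO. Transcript of the enzyme that breaks glycogen down thus exceeded that of the enzyme that makes it in each library, by 3.75 to 6.28 times. The 2 phosphoglucomutases are named crosswise in the table and in RefSeq. The gene listed as Pgm2 (identifier 72157, chromosome 4, Pgm1 in RefSeq) was at 67.3 to 94.8 FPKM, and the gene listed as Pgm1 (identifier 66681, chromosome 5, Pgm2 in RefSeq) at 13.7 to 16.3 FPKM, with log2 differences of -0.0019 and 0.06.

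**Figure D4:**
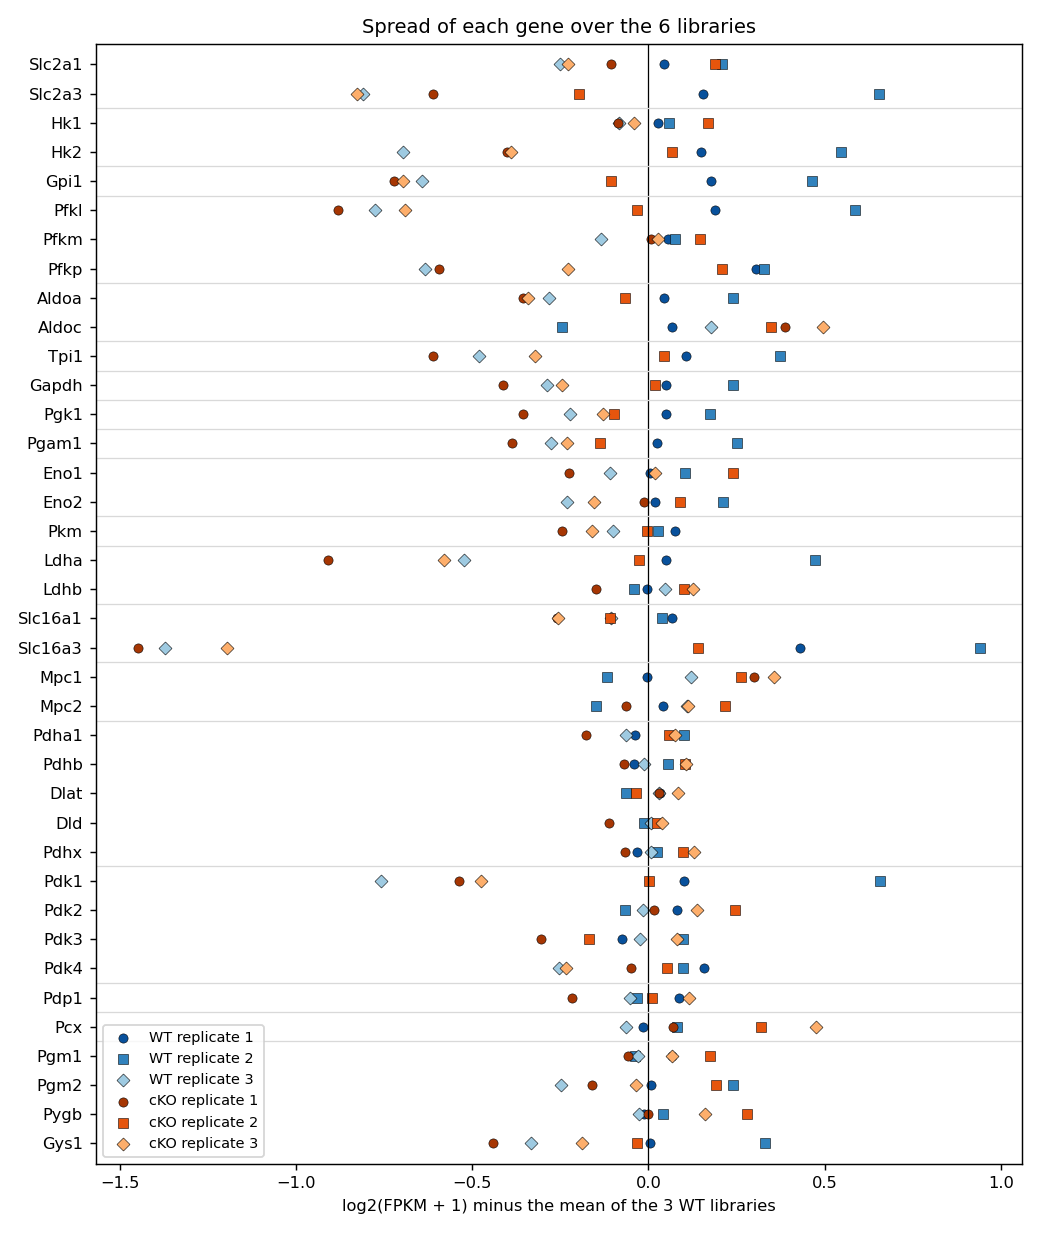
Value of each gene in each library on the log2(FPKM + 1) scale, relative to the mean of the 3 WT libraries (x axis), in the order of the pathway. WT replicate 2 is the highest and WT replicate 3, cKO replicate 1 and cKO replicate 3 are the low libraries for Slc2a3, Hk2, Gpi1, Pfkl, Ldha, Slc16a3 and Pdk1, while the subunits of the pyruvate dehydrogenase complex lie close to 0 in all 6.

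Across the pathway the libraries kept a recurring order that crossed the group labels. In 21 of the 38 genes WT replicates 1 and 2 and cKO replicate 2 were each above WT replicate 3 and cKO replicates 1 and 3, an order found in 8.18% of all tested genes. This order was noticed after the values had been seen and is a description, with no test. WT replicate 2 was the highest library for 19 members (26.6% of all tested genes) and cKO replicate 1 the lowest for 22 (20.6%). WT replicate 3 fell within the range of the libraries labelled cKO for 24 members (51.4% of all tested genes). Both WT replicates 1 and 2 were above every library labelled cKO for 17 of the 38 members, against 17.5% of all tested genes. The members that ranged at least 2-fold over the libraries were 7, Slc2a3, Hk2, Gpi1, Pfkl, Ldha, Slc16a3 and Pdk1, against 5.06% of all tested genes. At the other end 12 of the 38 members ranged under 1.25-fold, against 51.7% of all tested genes, and these included Hk1, Pfkm, Pkm, Ldhb, Pdk2, Pygb and all 5 subunits of the pyruvate dehydrogenase complex.

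Targets of HIF outside glycolysis had the same 3 libraries low. Of 24 such genes none passed in limma, and all 24 had lower means in cKO, where 55.5% of all tested genes were lower. An unadjusted p under 0.05 in limma was reached by 5, against 7.82% of all tested genes that reached it with lower values. The median difference of the 24 was -0.47. Leaving out WT replicate 2 gave a median of -0.18, and leaving out WT replicate 3 gave -0.74. With Y-linked share as covariate it was 0.98, with 2 of the 24 lower. Relative to the WT mean they averaged log2 values of 0.10, 0.49 and -0.59 in WT replicates 1 to 3 against -0.59, -0.17 and -0.62 in cKO replicates 1 to 3. The 38 glycolysis, lactate and pyruvate genes averaged 0.06, 0.18 and -0.25 in WT and -0.27, 0.07 and -0.13 in cKO, with the same 3 libraries lowest. Summed over the 24 targets the level was 995, 1318 and 536 FPKM in WT replicates 1 to 3 and 566, 803 and 545 FPKM in cKO. The order described above was found in 22 of the 24, against 8.18% of all tested genes. The genes of lowest p were Hilpda, a lipid droplet protein (17.3 to 20.4 FPKM in WT and 11.6 to 14.2 FPKM in cKO), Car12, a carbonic anhydrase (2.71 to 3.30 and 1.80 to 2.12 FPKM), and Ier3, an early response gene (12.4 to 19.7 and 8.84 to 12.9 FPKM). Hilpda and Car12 did not show the order described above, while Ier3 did. Against WT replicate 3 alone 6 of the 24 were lower, with a median of 0.15. The part of HIF activity in the differences between libraries was not tested.

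**Figure D5:**
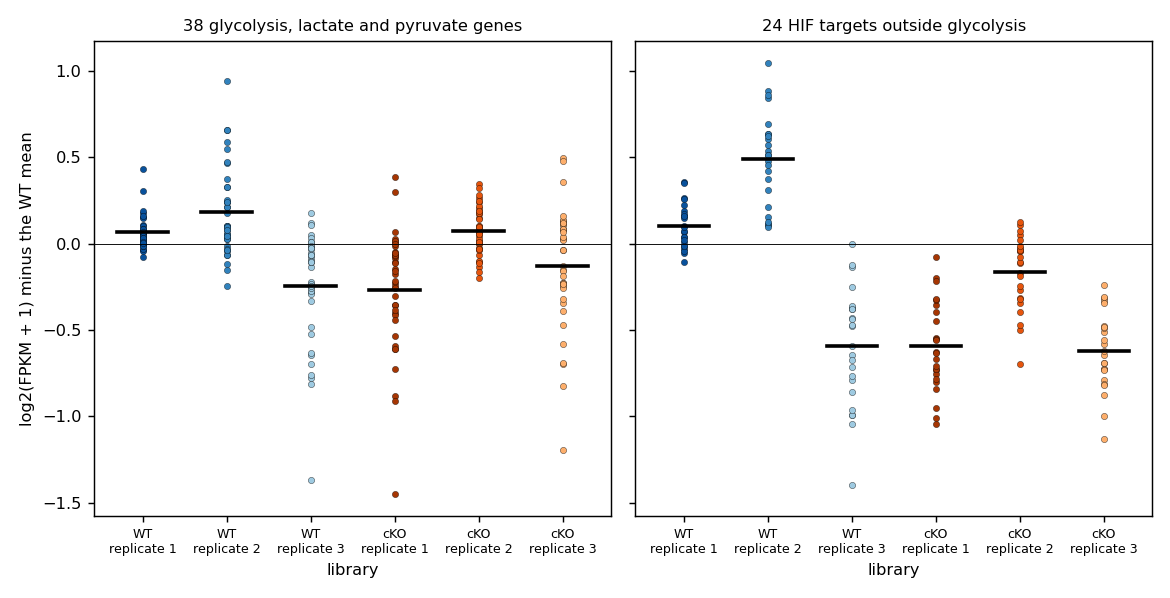
Values of the 38 genes (left) and of 24 HIF targets outside glycolysis (right) in each library, as log2(FPKM + 1) minus the mean of the 3 WT libraries (y axis). Points are genes and bars are their means, and in both panels WT replicate 3 and cKO replicates 1 and 3 have the 3 lowest means.

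Mitosis markers did not share this order. All 10 had lower means in cKO (median -0.43), where 55.5% of all tested genes were lower. None passed the adjusted threshold in limma. An unadjusted p under 0.05 was reached by 10, against 7.82% of all tested genes that reached it with lower values. The summed level of the markers was 238, 302 and 256 FPKM in WT replicates 1 to 3 and 187, 164 and 227 FPKM in cKO. The 3 of lowest p were Birc5, a mitotic checkpoint protein (27.96 to 33.9 FPKM in WT and 17.2 to 24.96 FPKM in cKO, adjusted p = 0.209 in limma), Kif2c, a kinesin (10.4 to 12.4 and 7.62 to 9.45 FPKM), and Top2a, a topoisomerase (57.4 to 69.9 and 37.3 to 51.1 FPKM). The library cKO replicate 2, high for the glycolytic genes, was thus the lowest for mitosis. The order of libraries that 21 of the 38 genes had was seen in 0 of the 10 markers, against 8.18% of all tested genes. With only 10 markers, 0 cannot be told from that share. The part of cell division in the differences of single members was not tested.

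The promoters are shown because many of these genes varied together between libraries and HIF binds a short core sequence. RefSeq promoters of GRCm38.p6, 250 bases before to 50 after the start of transcription, were found for 36 of the 38 genes, with none for Slc2a3 and Pdp1. The cores ACGTG and GCGTG were searched on both strands, and matches that overlapped, as in the palindrome CACGTG, were counted once. At the first start listed 27 of 36 members held at least 1 match (75.0%), against 64.9% of 9386 tested genes and 43.8% of all 32851 promoters. With at least 3 matches there were 8 members (22.2%), against 13.3% of the tested genes. Ldha had the most, with 5, and Gpi1, which varied nearly as widely, had none. A match is a description of the letters and not of binding. The members below are 4 that varied widely with the order of libraries described above (Slc16a3, Ldha, Pdk1, Gpi1) and the 2 with higher values in every library labelled cKO (Aldoc, Mpc1), with matches in capitals, 5′ to 3′ on the strand of the gene.
Slc16a3 (chr11:120948817-120949116, plus strand): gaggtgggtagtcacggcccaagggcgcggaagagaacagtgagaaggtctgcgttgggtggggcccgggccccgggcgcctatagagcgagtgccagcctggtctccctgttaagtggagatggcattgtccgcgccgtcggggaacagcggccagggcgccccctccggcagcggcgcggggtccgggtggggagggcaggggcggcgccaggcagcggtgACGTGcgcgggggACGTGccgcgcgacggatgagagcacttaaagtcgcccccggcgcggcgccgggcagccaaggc
Ldha (chr7:46845554-46845853, plus strand): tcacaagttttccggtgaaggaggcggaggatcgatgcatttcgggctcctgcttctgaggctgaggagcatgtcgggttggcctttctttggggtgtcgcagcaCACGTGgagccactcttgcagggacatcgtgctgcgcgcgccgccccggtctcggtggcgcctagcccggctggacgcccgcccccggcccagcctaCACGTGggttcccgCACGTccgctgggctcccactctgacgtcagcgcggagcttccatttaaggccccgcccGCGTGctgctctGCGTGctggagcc
Pdk1 (chr2:71872974-71873273, plus strand): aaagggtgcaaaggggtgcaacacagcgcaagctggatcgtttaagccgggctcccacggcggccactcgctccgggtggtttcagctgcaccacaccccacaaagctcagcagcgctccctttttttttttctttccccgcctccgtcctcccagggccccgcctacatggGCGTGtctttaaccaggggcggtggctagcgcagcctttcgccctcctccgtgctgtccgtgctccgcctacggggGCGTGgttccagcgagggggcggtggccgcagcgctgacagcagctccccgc
Gpi1 (chr7:34230287-34230586, minus strand): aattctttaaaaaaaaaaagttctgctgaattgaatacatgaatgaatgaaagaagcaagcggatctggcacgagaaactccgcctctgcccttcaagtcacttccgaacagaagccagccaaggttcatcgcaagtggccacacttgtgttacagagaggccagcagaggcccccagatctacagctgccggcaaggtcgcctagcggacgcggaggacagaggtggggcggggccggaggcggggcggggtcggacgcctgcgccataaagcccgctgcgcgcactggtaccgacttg
Aldoc (chr11:78322823-78323122, plus strand): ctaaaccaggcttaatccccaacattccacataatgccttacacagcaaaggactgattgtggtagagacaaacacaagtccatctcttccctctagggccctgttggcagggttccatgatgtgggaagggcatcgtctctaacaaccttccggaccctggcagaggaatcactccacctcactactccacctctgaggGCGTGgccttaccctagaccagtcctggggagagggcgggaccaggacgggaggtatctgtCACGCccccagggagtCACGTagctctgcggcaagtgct
Mpc1 (chr17:8283537-8283836, plus strand): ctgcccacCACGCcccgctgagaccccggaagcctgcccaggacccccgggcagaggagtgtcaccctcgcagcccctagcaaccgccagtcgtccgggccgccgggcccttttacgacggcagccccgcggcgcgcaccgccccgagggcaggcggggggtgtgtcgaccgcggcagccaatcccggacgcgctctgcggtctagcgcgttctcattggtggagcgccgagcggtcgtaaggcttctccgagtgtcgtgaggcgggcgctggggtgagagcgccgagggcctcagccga

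In Slc16a3 both matches lie near the end of the window, on the side of the transcription start. The Ldha window holds the palindrome at 2 of its 5 matches. Pdk1 has 2 matches, Aldoc 3 and Mpc1 1, where 64.9% of tested genes held at least 1. A link between matches and the differences was not tested.

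The rest of the pathway, 49 further genes of sugar transport, glycolysis, lactate, pyruvate and glycogen, had no common direction. Of these 39 were in the table and 28 were tested, 13 with lower and 15 with higher means, none past the threshold, with a median of 0.03. The 3 of lowest p were Gyg, the glycogenin that primes glycogen (45.4 to 49.9 FPKM in WT and 52.0 to 55.9 FPKM in cKO), Slc16a4, a monocarboxylate carrier family member (2.05 to 2.15 and 1.39 to 2.07 FPKM), and Slc2a10, a sugar transporter (2.99 to 3.34 and 2.03 to 3.20 FPKM). The order of libraries found in 21 of the 38 members was seen in 4 of the 28, against 8.18% of all tested genes. The remaining 11 of the 39 averaged under 1 FPKM and were not tested.

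Exons of 10 members overlap exons of another gene in GENCODE M21 (GRCm38). The overlap was largest for Pdha1 (21.2% of its exon bases, with Map3k15 on the other strand) and Pfkp (17.4%, with Pitrm1 on the other strand), and was 12.3% for Gpi1 and 12.9% for Pkm. The overlap of Pkm is with Gm49759 on the same strand, so reads from the shared bases could not be assigned even with strand, and in the other 9 members the overlapping gene is on the other strand.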

How the data were processed

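The deposited table holds an FPKM value for each gene in each library, per the file headers. The submitters' processing notes name Bowtie2 and the mouse build GRCm38 (mm10), and the library data were analysed at the BGISEQ institute, per the labels' protocols. The counting tool, annotation, transcript lengths and filters were not given in the sources used here. Its lowest value was 0.01 FPKM. FPKM carry no read totals. Steps worth 1 fragment were sought in the 46 to 51 values under 0.5 FPKM per library of genes with a single short transcript, and at the depth that suited best only 52.1% to 64.7% were whole to within 0.1 fragment, so whole reads were not recovered, the depth is unknown, and the precision is that of the replicate spread.

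The analysis used log2(FPKM + 1), with pseudocount 1, for the 11596 genes averaging 1 FPKM or more (2731 left out), a scale that understates changes of low genes. The group difference was fitted by limma 3.58.1 under R 4.3.3 (eBayes with intensity trend, two-sided, Benjamini-Hochberg over all tested genes, threshold 0.05). The code was tried on simulated data whose noise was independent between genes. Such data lack the spread shared between libraries seen here, so they do not test the fit under it. Isoform shares used exact permutation tests (scipy 1.17.1). Members, lists and alternatives were chosen with earlier results of these data known. Named are all 38 members, Slc22a17, Ddx3y and Eif2s3y, and of each other list described the genes past the threshold or the 3 of lowest p. Markers named for the label check, and other exceptions stated where they occur, were chosen after values were seen. Coordinates and promoters are from RefSeq (GRCm38.p6). Alternatives were other pseudocounts, filters, scalings and variance models, a replicate block, each library left out, Y-linked share as covariate, and WT replicate 3 alone. Figures were drawn with matplotlib 3.10.9.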

Additional observations from a re-analysis of the deposited data

How the results depend on the processing

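No member passed under 18 of the 19 settings tried, and Mpc1 alone passed with library weights (1 member, adjusted p = 0.0431, log2 difference 0.31). Over all genes 3 passed in the comparison as reported, and 0 without a filter, with quantile normalization, without an intensity trend, with Y-linked share as covariate or against WT replicate 3 alone, where 1610, 1473, 1381, 549 and 421 genes had an unadjusted p under 0.05. There were 129 with library weights, 22 with the replicate number as a block, and 0 to 10 when single libraries were left out, 10 of them without WT replicate 3. With the replicate block 0 members passed the threshold and 11 had an unadjusted p under 0.05, against 4 without it. Over all tested genes 1739 had an unadjusted p under 0.05 with the block and 1422 without it. The differences themselves cannot change in this balanced design. Deviations from the group means correlated at -0.0427, 0.305 and 0.258 between libraries of the same number, for numbers 1 to 3. WT replicates 2 and 3 were each closest to the cKO library of their own number. WT replicate 1 was closest to cKO replicate 2 (0.118), so the numbers matched the libraries only in part. The 24 lower members numbered 20 to 27 when single libraries were left out, and the median over all members ran from -0.14 to -0.0065. At other pseudocounts and without a filter every member kept its sign. The depth behind the values is unknown. The fewest fragments per length lie behind low values such as those of Pdp1. The same holds for Slc16a3 in WT replicate 3 and cKO replicates 1 and 3.

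With Y-linked share as covariate the median was 0.39, 6 members were lower, and these 26 differences turned sign: Slc2a1 0.64, Slc2a3 1.41, Hk2 1.44, Gpi1 1.11, Pfkl 1.43, Pfkp 1.39, Aldoa 0.46, Aldoc -0.016, Tpi1 0.93, Gapdh 0.54, Pgk1 0.34, Pgam1 0.40, Eno2 0.54, Pkm 0.16, Ldha 0.90, Ldhb -0.040, Slc16a1 0.076, Slc16a3 2.68, Mpc2 -0.076, Pdha1 0.16, Dlat -0.079, Pdk1 1.496, Pdk4 0.55, Pdp1 0.096, Pgm2 0.64 and Gys1 0.60. Against WT replicate 3 alone the median was 0.12, 7 members were lower, and these 23 turned sign: Slc2a1 0.20, Slc2a3 0.27, Hk2 0.45, Gpi1 0.13, Pfkl 0.24, Pfkp 0.43, Aldoa 0.028, Tpi1 0.18, Gapdh 0.075, Pgk1 0.029, Pgam1 0.024, Eno2 0.20, Ldha 0.020, Ldhb -0.021, Slc16a3 0.54, Mpc2 -0.021, Pdha1 0.049, Dlat -0.0049, Pdk1 0.42, Pdk4 0.18, Pdp1 0.022, Pgm2 0.25 and Gys1 0.11. In that setting 12 isoform shares turned, in percentage points: Slc2a1 -0.58, Hk2 2.84, Pfkl 0.34, Pfkm -1.92, Pfkp 1.58, Eno1 -0.044, Ldha 0.77, Slc16a1 -5.14, Pdk1 2.46, Pdk2 -0.30, Pdk4 0.29 and Pgm1 -1.43. Near zero, Hk1 -0.0065, Pdha1 0.042 and Pgm2 0.0038 turned with library weights, Pdha1 0.010, Dld 0.0089 and Pgm2 0.022 with median centring, and Eno2 0.013 and Pdp1 0.019 with quantile normalization. Leaving out single libraries turned 13 members, with ranges of Slc2a1 -0.17 to 0.056, Hk1 -0.063 to 0.065, Hk2 -0.59 to 0.032, Pfkm -0.0067 to 0.098, Eno1 -0.10 to 0.13, Eno2 -0.14 to 0.080, Ldhb -0.024 to 0.11, Pdha1 -0.060 to 0.068, Dlat -0.0058 to 0.057, Dld -0.043 to 0.033, Pdk4 -0.20 to 0.0023, Pdp1 -0.10 to 0.064 and Pgm2 -0.13 to 0.12, and 3 shares, with ranges of Eno1 -0.016 to 0.055, Pdk4 -0.83 to 0.022 and Pgm1 -0.70 to 1.5 points. The values with Y-linked share as covariate rest mainly on WT replicate 3, the only WT library with Y-linked transcripts, and 0 members passed in that fit. The causes were not tested.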
